A study of Homo sapiens with 6 samples.

Results

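The replication fork machinery is the set of proteins that unwind and copy DNA in S phase. The genes of 39 of its subunits were chosen by symbol and by their place in the machinery, with earlier results of these data known. The study of these data had already reported lower RNA of *MCM5* and *GINS2* after treatment, by RNA-seq and by qPCR. From enrichment analyses of the same RNA-seq it also named DNA replication as the main changed pathway, with its gene sets lower. All 39 were found among the 20348 genes of the table and passed the filter on low counts. They were grouped into the MCM2 to MCM7 ring (6 genes), CDC45 and GINS (5), DNA polymerase alpha-primase (4), polymerase delta (4), polymerase epsilon (4), PCNA and its clamp loader RFC (6), the single-strand binding protein RPA (3) and the enzymes of Okazaki fragments (7). RNA-seq was performed on MV4-11, an established human acute myeloid leukemia (AML) cell line. The 3 Control samples were a blank control without WNK463, and the 3 WNK463 samples were treated for 48 h with 1 μM WNK463, a compound that blocks WNK kinases. The series asks which RNA changes accompany the inhibitory effect of WNK463 on AML cells. It covers 1 cell line, 1 dose and 1 time, and the vehicle of the Control samples is not given in the sources used here. The sources do not say that the samples came from separate cultures, so p-values measure the spread between these samples, which may be technical.

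The MCM ring is loaded on DNA before S phase and becomes the active helicase, called CMG, when CDC45 and the GINS tetramer join it. Polymerase alpha-primase lays down RNA-DNA primers, polymerase epsilon extends the leading strand and polymerase delta the lagging strand. RFC opens the PCNA ring and loads it at primer ends, where it holds the polymerases. RPA coats the single-stranded DNA behind the helicase. On the lagging strand, FEN1, DNA2 and the RNase H enzymes remove primers and flaps, and LIG1 seals the nicks. Many of these genes are known targets of the E2F transcription factors, which turn on genes at the entry to S phase.

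The RNA of nearly the whole fork was lower with WNK463, and the helicase fell further than the other subcomplexes. By edgeR's quasi-likelihood test, 37 of the 39 genes were lower at an adjusted p below 0.05 and 0 were higher, whereas 35.3% of all 11973 tested genes were lower and 35.5% higher by the same rule. In 22 of the 39 the fall was at least 1 on the log2 scale, against 5.55% of all tested genes. None rose by as much, against 9.62% of all tested genes. The 3 WNK463 values lay below all 3 Control values in 94.9% of the fork genes and in 36.4% of all tested genes (73.5% in either direction). The median log2 fold change was -1.02 over the 39 genes and 0.02 over all tested genes. Summed over the 39 genes, the level was 6912 ± 80.1 normalised read counts per 1000000 (CPM, scaled with edgeR's TMM library factors) in Control and 2815 ± 28.7 CPM with WNK463 (SD, n = 3 each), which is 40.7% of Control. Without the TMM factors the sum was 45.2% of Control.

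**Figure D1:**
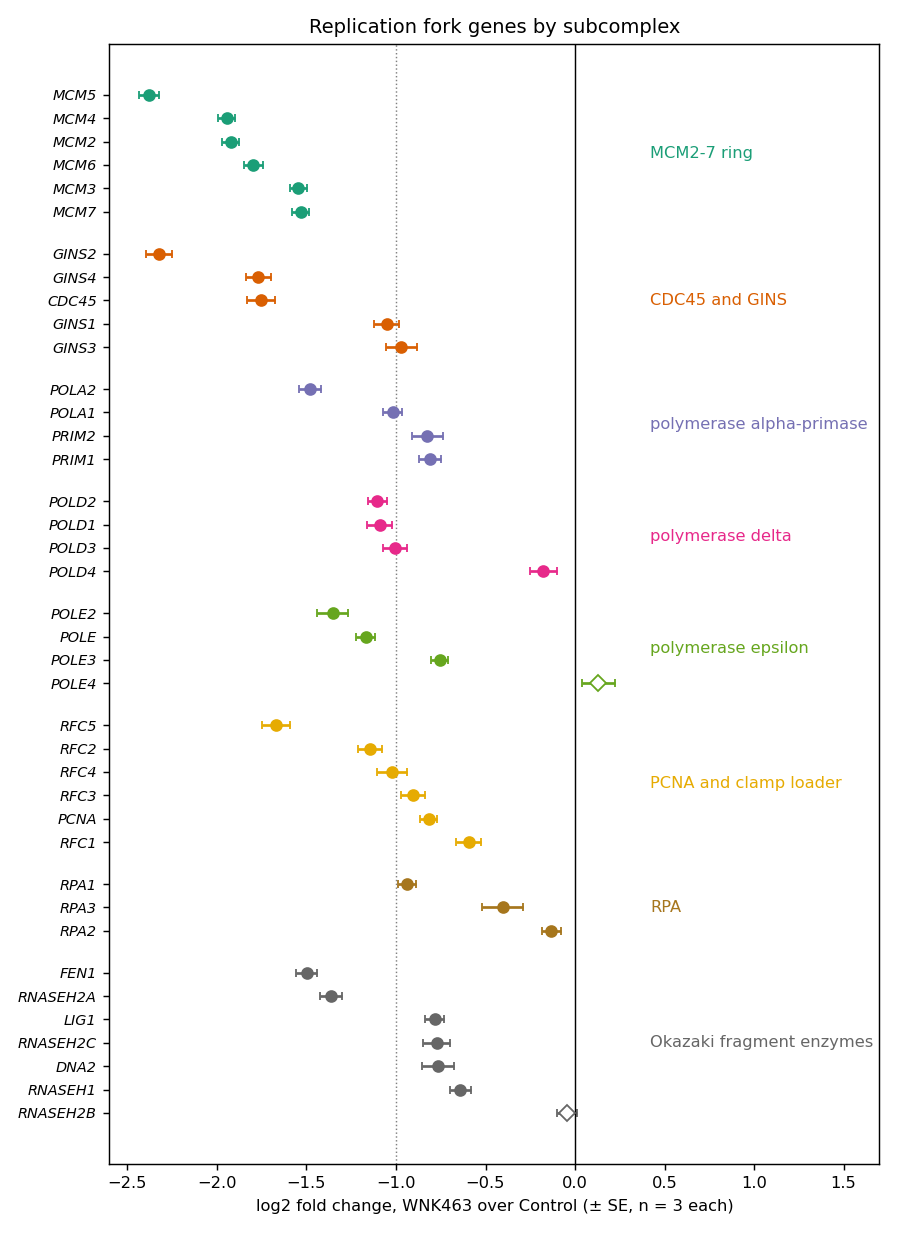
Log2 fold change (WNK463 over Control, x axis) of the 39 fork genes, coloured by subcomplex, with bars of 1 standard error from edgeR, filled points for genes called lower and open diamonds for genes that were not. The helicase subunits lie between -2.38 and -0.97, and only *POLE4*, at 0.13, lies above 0.

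The depth was similar in all samples, with total counts between 14915745 and 17411780, and the counts of single fork genes ran from 195 to 16284. The TMM factors were 0.944 to 0.951 in Control and 1.05 to 1.06 with WNK463. Scaling by total counts in their place moved the median over all tested genes up by 0.15 (log2). The changes below are therefore relative to that median, and 38 of the 39 fork genes lay below it under both scalings. Markers of the cell line were present, with *SPI1*, *FLT3*, *CD33*, *HOXA9* and *MEIS1* detected, *MPO* low and *CD14* below the filter. The sum of the 11 myeloid markers was 2268 to 2405 CPM in Control and 1427 to 1445 CPM with WNK463. The fall of this sum was that of *LYZ*, which codes for lysozyme (1355 to 291 CPM). Without it the sum of the other 10 was 942 to 999.7 CPM in Control and 1140 to 1152 CPM with WNK463. Of the 10 tested markers, 5 were higher (*PTPRC*, *ITGAM*, *CSF1R*, *HOXA9* and *MEIS1*) and 4 lower (*MPO*, *LYZ*, *CD33* and *FLT3*). Of all tested genes, 35.5% were higher and 35.3% lower. The part of these markers in the fork values was not tested. Of 10 markers of other cell types, 7 were below 1 CPM, 4 of them at 0 in every sample. The sum of these 10 rose from between 103 and 116 CPM to between 170.2 and 184 CPM. The rise was that of *PECAM1* (96.9 to 169 CPM), an adhesion molecule that myeloid cells also carry. The other tested markers of this list, *KRT18* (10.1 to 6.31 CPM) and *NCAM1* (1.07 to 0.425 CPM), were lower. In bulk RNA, fewer cells in S phase and less fork RNA per cell cannot be told apart. The 15 genes of the G2/M list, which mark dividing cells at a later stage, summed to 2819 to 3114 CPM in Control and 2276 to 2404 CPM with WNK463, and the part of cell cycle stage in the fork values was not tested.

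To show what these genes share in sequence, the RefSeq promoter windows (GRCh38.p14, from 250 bases before to 50 after the start) were searched on both strands for the E2F-type words TTTCCCGC, TTTCGCGC, TTTGCCGC and TTTGGCGC. Windows were given for 32 of the 39 genes. Those of *MCM4*, *MCM5*, *GINS4*, *POLD3*, *RPA2*, *RPA3* and *DNA2* are not analysed here. A word was present in 13 of 32 fork promoters (40.6%), against 5.56% of the 9647 promoters of tested genes and 3.27% of all 27305 promoters. Among tested genes outside the fork that were lower by at least 1 log2, the share was 9.98% of 491. The words lay in 3 of 4 windows of the MCM ring, 3 of 4 of CDC45 and GINS, 2 of 4 of polymerase alpha-primase, 3 of 4 of polymerase epsilon, 1 of 6 of PCNA and RFC, 1 of 6 of the Okazaki enzymes, 0 of 3 of polymerase delta and 0 of 1 of RPA. By size of change, 9 of the 18 genes lower by at least 1 log2 held a word, as did 3 of the 12 lower by less and 1 of the 2 not called lower. CCAAT was found in 53.1% of the fork windows and 36.6% of those of tested genes. GGGCGG was found in 71.9% and 68.9%. The words TTTGAA and TTCGAA, known from G2/M promoters, were found in 6.25% and 11.7%.

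The stretches below, of 30 bases each except the last of 120 bases, show the words in capitals, 5′ to 3′ along the gene's strand. *GINS2* had the largest fall among genes with a window and *POLE4* was not called lower. Both hold the same word, with its first base 31 bases before the RefSeq start used for each gene. In the GENCODE annotation *GINS2* runs to 85690073 on the minus strand and *POLE4* begins at 74958492 on the plus strand. By these bounds both printed stretches lie inside the genes, so the equal distance holds for the RefSeq starts only. *POLE* and *POLE2*, partners of *POLE4* in the same enzyme, hold another word. *POLA2* and *RFC3* are examples from polymerase alpha and the clamp loader, and no other window of PCNA and RFC than that of *RFC3* held a word. *MCM6* and *MCM2* hold overlapping words that read the same way on both strands or nearly so. These 6 were chosen after their values were seen.
GINS2, chr16:85688967-85688996, minus strand: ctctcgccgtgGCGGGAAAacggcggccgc
POLE4, chr2:74958601-74958630, plus strand: ctccagcccgcGCGGGAAAgggcctgcgcc
POLE, chr12:132687342-132687371, minus strand: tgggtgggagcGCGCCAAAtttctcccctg
POLE2, chr14:49688201-49688230, minus strand: ctgcggcggtgGCGCCAAAtcgcaaatatg
POLA2, chr11:65261898-65261927, plus strand: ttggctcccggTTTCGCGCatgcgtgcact
RFC3, chr13:33818083-33818112, plus strand: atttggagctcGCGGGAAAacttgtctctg
MCM6, chr2:135876515-135876544, minus strand: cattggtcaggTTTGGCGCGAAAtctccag
MCM2, chr3:127598402-127598431, plus strand: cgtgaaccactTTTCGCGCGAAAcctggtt
RNASEH2B, chr13:50909558-50909677, plus strand: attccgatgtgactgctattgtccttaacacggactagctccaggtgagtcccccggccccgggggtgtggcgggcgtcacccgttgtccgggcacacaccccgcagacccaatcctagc
The longer stretch belongs to *RNASEH2B*, the other gene not called lower, whose window held none of the E2F-type words and no GGGCGG. A match is a run of letters and not a measured binding site. The log2 fold changes of the genes with a printed word ran from -2.32 for *GINS2* to 0.13 for *POLE4*. The same letters stood before the RefSeq start used for *GINS2* and for *POLE4*, and the part of the words in the changes was not tested.

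The MCM ring had the largest falls. All 6 subunits were lower by at least 1 log2, with a median log2 fold change of -1.86 and a range from -2.38 to -1.53, and their summed level was 28.2% of Control. The ring alone held 3352 of the 6912 CPM of the fork genes in Control. *MCM5* (ENSG00000100297, chromosome 22 from 35400063 to 35425430, plus strand) read 425, 383 and 379.5 CPM in Control and 75.8, 79.2 and 73.6 CPM with WNK463. The groups were far apart, with the highest treated sample well under the lowest Control sample. Its log2 fold change was -2.38 (SE 0.06, adjusted p = 7.1e-16 by edgeR), the largest fall of the 39. *MCM4*, the subunit with the highest level, read 950.2, 992 and 993 CPM in Control and 262, 240.5 and 260.2 CPM with WNK463. Its log2 fold change was -1.95 (SE 0.05, adjusted p = 1.3e-15 by edgeR). *MCM7* had the smallest fall of the ring, from 660.2, 635 and 613 CPM to 219, 219.9 and 220.3 CPM, with a log2 fold change of -1.53 (SE 0.05). Even this smallest change of the ring lay beyond every fork gene outside the helicase but *RFC5*. The log2 fold changes of *MCM2*, *MCM6* and *MCM3* were -1.92, -1.80 and -1.54.

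CDC45 and the GINS tetramer, which turn the ring into the active helicase, were also lower in all 5 genes, with a median of -1.75. *GINS2* (ENSG00000131153, chromosome 16 from 85676198 to 85690073, minus strand) read 68.4, 68.2 and 64.0 CPM in Control and 13.5, 12.8 and 13.8 CPM with WNK463. Its log2 fold change was -2.32 (SE 0.07, adjusted p = 2.7e-14 by edgeR), and the Control samples were all above the treated ones. *GINS3* had the smallest fall of the helicase, from 29.1, 29 and 26.4 CPM to 15.1, 13.6 and 14.4 CPM. Its log2 fold change of -0.97 (SE 0.09, adjusted p = 2.0e-08 by edgeR) was the only 1 of the 11 helicase genes under 1 log2, although its groups did not overlap. *CDC45*, *GINS4* and *GINS1* had log2 fold changes of -1.75, -1.77 and -1.05. The 4 GINS proteins form a tetramer with 1 copy of each, yet their RNAs fell by unequal amounts.

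**Figure D2:**
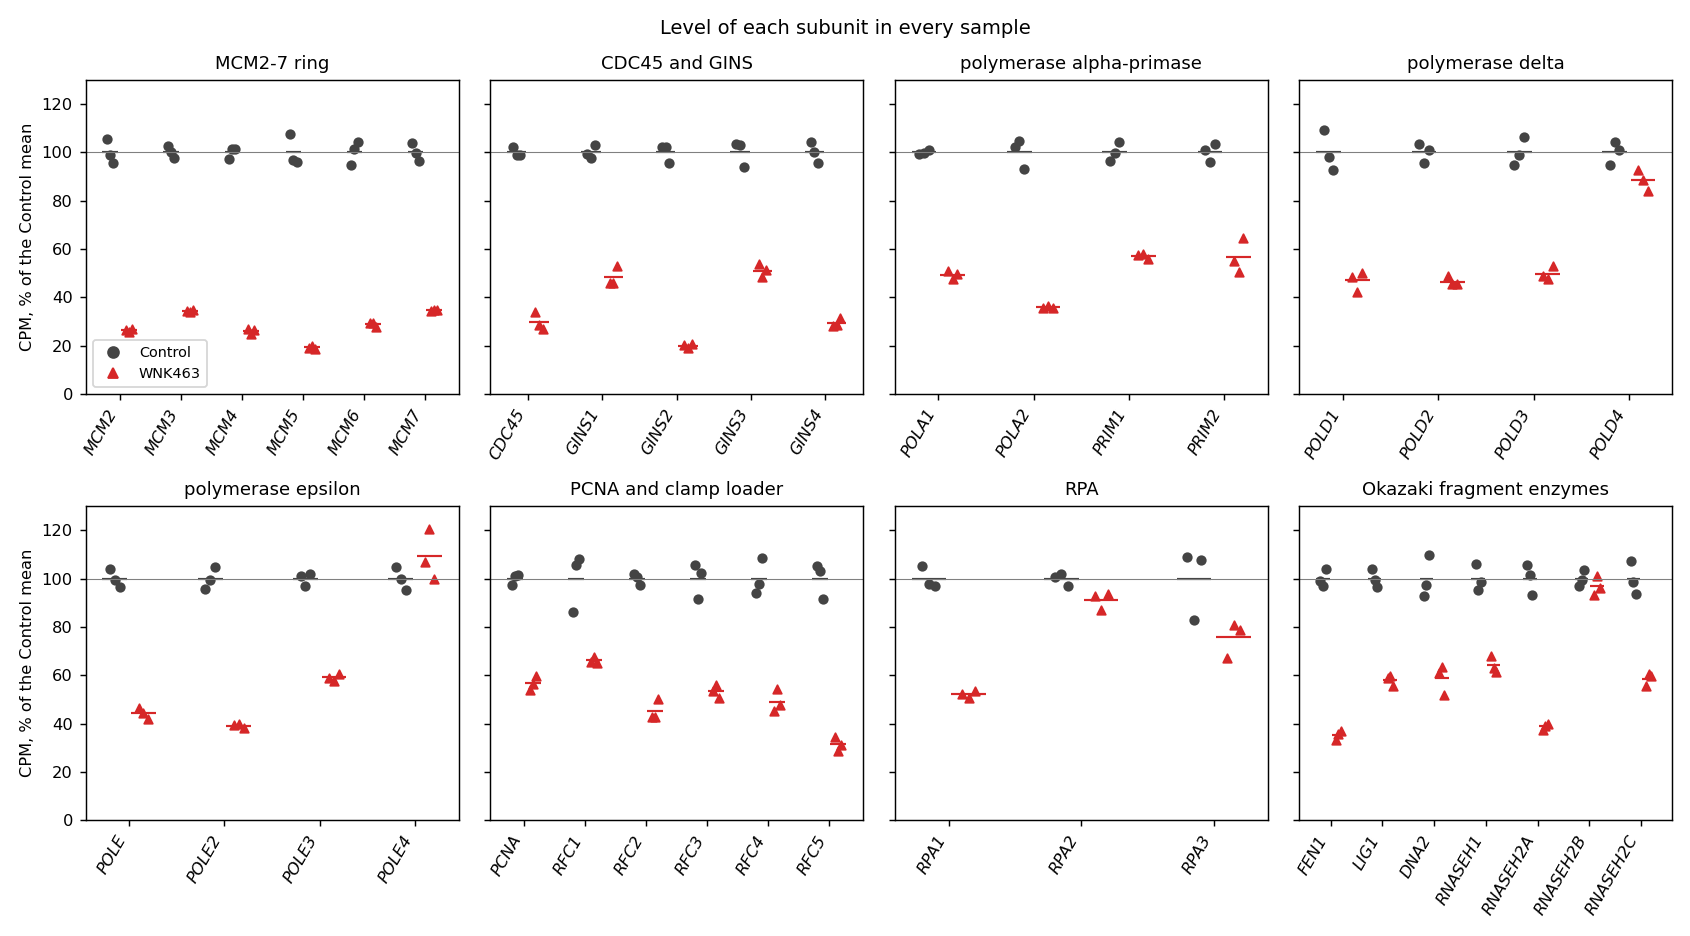
CPM of the 39 fork genes in every sample, as a percentage of the gene's Control mean (y axis), with 1 panel per subcomplex, circles for the 3 Control samples, triangles for the 3 WNK463 samples and short lines for group means. The groups of *POLE4* and *RNASEH2B* overlap, those of the other 37 genes do not, and *MCM5* is lowest at 19.2% of Control.

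Polymerase alpha-primase, the only fork enzyme that starts new strands, was lower in 4 of 4 genes with a median of -0.92. *POLA2*, its regulatory subunit, read 107, 109 and 97.2 CPM in Control and 37.1, 37.9 and 37.2 CPM with WNK463, a log2 fold change of -1.48 (SE 0.06, adjusted p = 7.4e-13 by edgeR). *PRIM1*, the catalytic primase subunit, read 64.7, 66.8 and 69.9 CPM in Control and 38.5, 38.8 and 37.3 CPM with WNK463, a log2 fold change of -0.81 (SE 0.06). Both genes separated the groups fully, and *POLA2* fell further. *POLA1*, the catalytic polymerase subunit, and *PRIM2*, the large primase subunit, had log2 fold changes of -1.02 and -0.82.

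Polymerase delta split into 3 subunits that fell by similar amounts and another, *POLD4*, that hardly moved. *POLD1*, the catalytic subunit, *POLD2* and *POLD3* had log2 fold changes of -1.09, -1.10 and -1.01. *POLD2* read 219, 202 and 214 CPM in Control and 103, 96.1 and 95.8 CPM with WNK463, with no overlap. *POLD4* (ENSG00000175482, chromosome 11 from 67350777 to 67356972, minus strand), the smallest subunit, read 32.3, 35.5 and 34.3 CPM in Control and 31.5, 30.1 and 28.6 CPM with WNK463. The groups touched closely without overlapping, and the log2 fold change of -0.18 (SE 0.07, adjusted p = 0.041 by edgeR) was near the threshold. Its call was lost with the replicate number as a block (adjusted p = 0.055), with Control sample 2 or 3 or WNK463 sample 2 or 3 left out, with DESeq2 (adjusted p = 0.089) and with a minimum of 10 counts (adjusted p = 0.064). It was also lost with total counts, at -0.03, and with limma on TPM, at -0.04 with either pseudocount.

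Polymerase epsilon was lower in 3 of 4 genes, with a median of -0.96 and log2 fold changes from -1.35 to 0.13. *POLE2*, which holds the catalytic subunit to the helicase, read 31.4, 32.5 and 34.3 CPM in Control and 12.9, 13.1 and 12.4 CPM with WNK463. Its log2 fold change was -1.35 (SE 0.08, adjusted p = 1.4e-10 by edgeR). *POLE4* (ENSG00000115350, chromosome 2 from 74958492 to 74970128, plus strand), a small histone-fold subunit, read 20.3, 19.4 and 18.5 CPM in Control and 20.8, 23.4 and 19.4 CPM with WNK463. These groups overlapped, and the log2 fold change of 0.13 (SE 0.09, adjusted p = 0.22 by edgeR) did not pass. Scaled by total counts, *POLE4* was called higher at 0.28 (adjusted p = 0.013 by edgeR), so its direction relative to the other genes held and its call depended on the scaling. *POLE*, the catalytic subunit, was at -1.17, and *POLE3*, the histone-fold partner of *POLE4*, at -0.76 (adjusted p = 1.7e-10 by edgeR).

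PCNA and the 5 RFC genes were all lower, with a median of -0.96. *RFC5* (chromosome 12 from 118013588 to 118033130, plus strand) read 79.1, 77.4 and 69.0 CPM in Control and 26, 21.6 and 23.4 CPM with WNK463, a log2 fold change of -1.67 (SE 0.08). *RFC1*, the large subunit that is particular to the PCNA loader, read 102, 124 and 127 CPM in Control and 77.1, 79.6 and 76.7 CPM with WNK463, a log2 fold change of -0.59 (SE 0.07, adjusted p = 6.7e-07 by edgeR). Neither gene overlapped between groups, but Control sample 1 of *RFC1* lay nearer to the treated samples than its partners. *RFC2*, *RFC4* and *RFC3*, which like *RFC5* are shared with other clamp loaders, were at -1.14, -1.02 and -0.90. *PCNA* itself averaged 375 ± 8.36 CPM in Control and 213 ± 11.6 CPM with WNK463 (SD, n = 3 each), with a log2 fold change of -0.82, and 3 annotated pseudogenes carry its name, which can take or lend reads.

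RPA moved least, with a summed level of 65.5% of Control and a median of -0.40. *RPA1*, the large subunit with most of the DNA-binding surface, read 297, 276 and 273 CPM in Control and 147, 143 and 151 CPM with WNK463, a log2 fold change of -0.94 (SE 0.05, adjusted p = 1.7e-11 by edgeR). *RPA2* (chromosome 1 from 27891524 to 27914746, minus strand), the subunit that is phosphorylated under replication stress, read 140.0, 142 and 135 CPM in Control and 129, 121 and 130.2 CPM with WNK463. Its groups were adjacent but not overlapping, at -0.13 (SE 0.05, adjusted p = 0.028 by edgeR), and the value was 0.02 with total-count scaling and 0.03 with limma on TPM. The call was also lost without Control sample 2 and without WNK463 sample 2, and 3 annotated pseudogenes carry the gene's name. *RPA3*, the small subunit, read 20.3, 15.4 and 20.1 CPM in Control and 12.5, 15.1 and 14.7 CPM with WNK463. Control sample 2 lay just above the highest treated sample, and the log2 fold change was -0.40 (SE 0.12, adjusted p = 0.0046 by edgeR). This call was lost with total counts (-0.25, adjusted p = 0.066 by edgeR) and with limma on log2(TPM + 1) and log2(TPM + 0.1) (-0.25 and -0.26, adjusted p = 0.13 and 0.15). With total counts, 1 of the 3 RPA genes was called lower.

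Of the 7 enzymes of Okazaki fragments, 6 were lower. *FEN1*, the flap nuclease (chromosome 11 from 61792637 to 61797244, plus strand), read 148, 145 and 156 CPM in Control and 49.8, 53.8 and 55.4 CPM with WNK463. Its groups were clearly separate, and its log2 fold change was -1.50 (SE 0.06, adjusted p = 2.7e-13 by edgeR). *RNASEH2A*, the catalytic subunit of RNase H2, was next at -1.36 (adjusted p = 1.5e-12 by edgeR). *RNASEH2B* (ENSG00000136104, chromosome 13 from 50909678 to 51024120, plus strand), a subunit of the same enzyme that binds PCNA, read 85.7, 87.9 and 91.6 CPM in Control and 82.6, 89.3 and 85.2 CPM with WNK463. These groups overlapped, and the log2 fold change was -0.04 (SE 0.05, adjusted p = 0.48 by edgeR). *RNASEH2C*, which has no enzyme activity of its own, was at -0.77. *LIG1*, the ligase, *DNA2*, a nuclease and helicase, and *RNASEH1*, which also serves mitochondria, were at -0.78, -0.76 and -0.64.

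A ratio of subunits within a sample does not depend on the scaling between libraries, so the log2 ratio of CPM was computed for all 82 pairs inside a subcomplex. The groups did not overlap in 63 of them (76.8%), close to the 72.1% of all pairs of tested genes, so separation as such was no feature of the fork. Large changes were fewer than among all pairs of tested genes, with 7 of the 82 ratios (8.54%) changed by at least 1 log2, against 30.7%. The pairs of all tested genes include genes of low counts and genes that moved in opposite directions, whereas 37 of the 39 fork genes were lower. Each ratio was written with the subunit that gained against the other on top, so all changes are positive sizes, and their median was 0.53. With 3 samples against 3, the exact two-sided permutation test cannot go below 0.10, and each of the 63 pairs was at that limit (0.13 after Benjamini-Hochberg adjustment over the 82).

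The largest change in a subcomplex was that of *POLE4* over *POLE2*. This log2 ratio was -0.62, -0.74 and -0.89 in Control and 0.69, 0.84 and 0.64 with WNK463, a change of 1.47 ± 0.10 (SE), so the order of the 2 CPM values turned around in every sample. *RNASEH2B* over *FEN1* went from -0.79, -0.72 and -0.77 to 0.73, 0.73 and 0.62, a change of 1.45 ± 0.04. *GINS3* over *GINS2* went from -1.23, -1.23 and -1.28 to 0.16, 0.09 and 0.07, a change of 1.35 ± 0.03. In all of these pairs the SE was a small part of the change. The pairs with the largest change in the other subcomplexes were *RFC1* over *RFC5* (1.08 ± 0.18), *POLD4* over *POLD2* (0.93 ± 0.08), *MCM7* over *MCM5* (0.84 ± 0.04), *RPA2* over *RPA1* (0.81 ± 0.04) and *PRIM1* over *POLA2* (0.66 ± 0.08). The smallest change was that of *DNA2* over *RNASEH2C*, at 0.0047 ± 0.16. Within RNase H2, *RNASEH2B* over *RNASEH2A* changed by 1.32 ± 0.09.

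**Figure D3:**
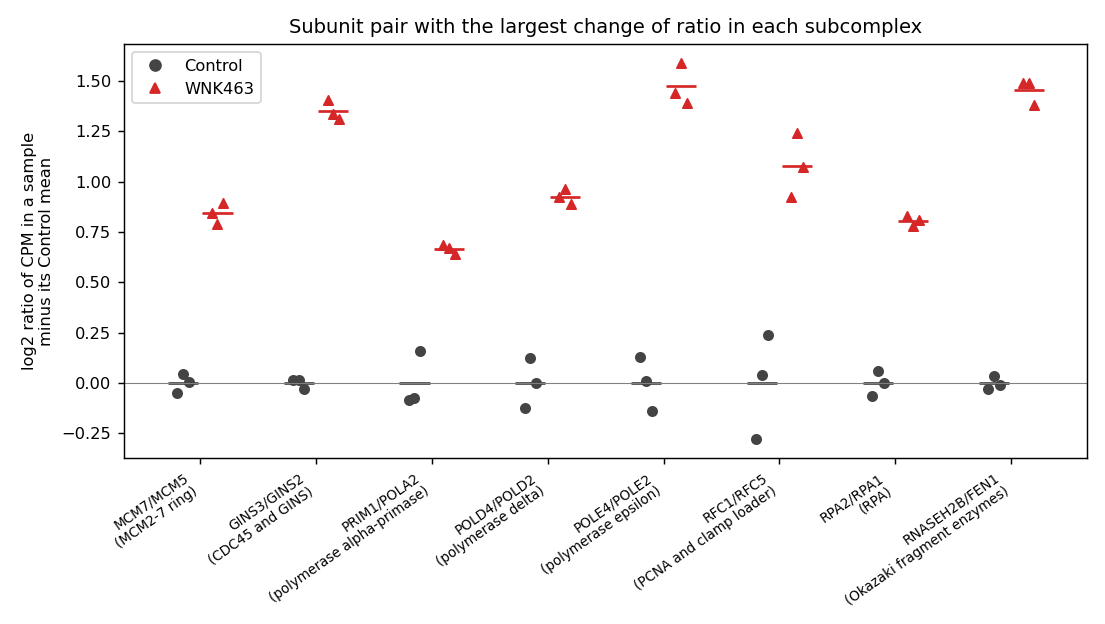
Within-sample log2 ratio of CPM minus its Control mean (y axis) for the pair with the largest change in each subcomplex, with circles for the 3 Control samples, triangles for the 3 WNK463 samples and short lines for group means. The groups do not overlap in any pair shown, and the mean changes run from 0.66 to 1.47.

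Levels between genes were compared on the TPM scale, which corrects for length. In Control the ring subunits ran from *MCM4* at 872 ± 102 TPM through *MCM7* (479), *MCM2* (293), *MCM5* (263) and *MCM3* (239.9) to *MCM6* at 214 ± 12.6 TPM (SD, n = 3), a span of 4.08-fold. The samples of *MCM2*, *MCM5* and *MCM3* overlapped with their neighbours in this order. With WNK463 the span was 4.20-fold, and *MCM5* stood last at 56.0 ± 1.34 TPM. So *MCM5* went from the middle of the ring to its lowest level. The TPM level of *GINS2* fell from 47.3 ± 1.64 to 10.9 ± 0.512, from a place beside *GINS4* and *GINS1* to the lowest of the tetramer, below *GINS3* at 15 ± 0.694.

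In polymerase epsilon the Control order was *POLE3* (207 TPM), *POLE* (57.1), *POLE2* (40.2) and *POLE4* (32.9). With WNK463 it was *POLE3* (141), *POLE4* (41.1), *POLE* (29.7) and *POLE2* (18.9), and no neighbours in either order overlapped. *POLD4* moved above *POLD1*, with 70.8 against 101 TPM in Control and 68.6 against 54.1 TPM with WNK463. *RFC5* went from 69.1 to 25.4 TPM and became the lowest of the clamp loader, below *RFC1* at 35.1 TPM. Within RNase H2, *RNASEH2A* led in Control (207 against 129 TPM of *RNASEH2B*), and *RNASEH2B* led with WNK463 (145 against 92.0). *RPA2* stayed the highest of RPA, at 169 ± 6.32 and 173 ± 5.32 TPM, while *RPA1* went from 109 to 64.5 TPM. Control TPM and log2 fold change had a Spearman correlation of -0.40 across the 39 fork genes and -0.39 across all tested genes. The Control samples enter both values, so their spread alone can lower this correlation. It is a description over genes that share the same 6 libraries.

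**Figure D4:**
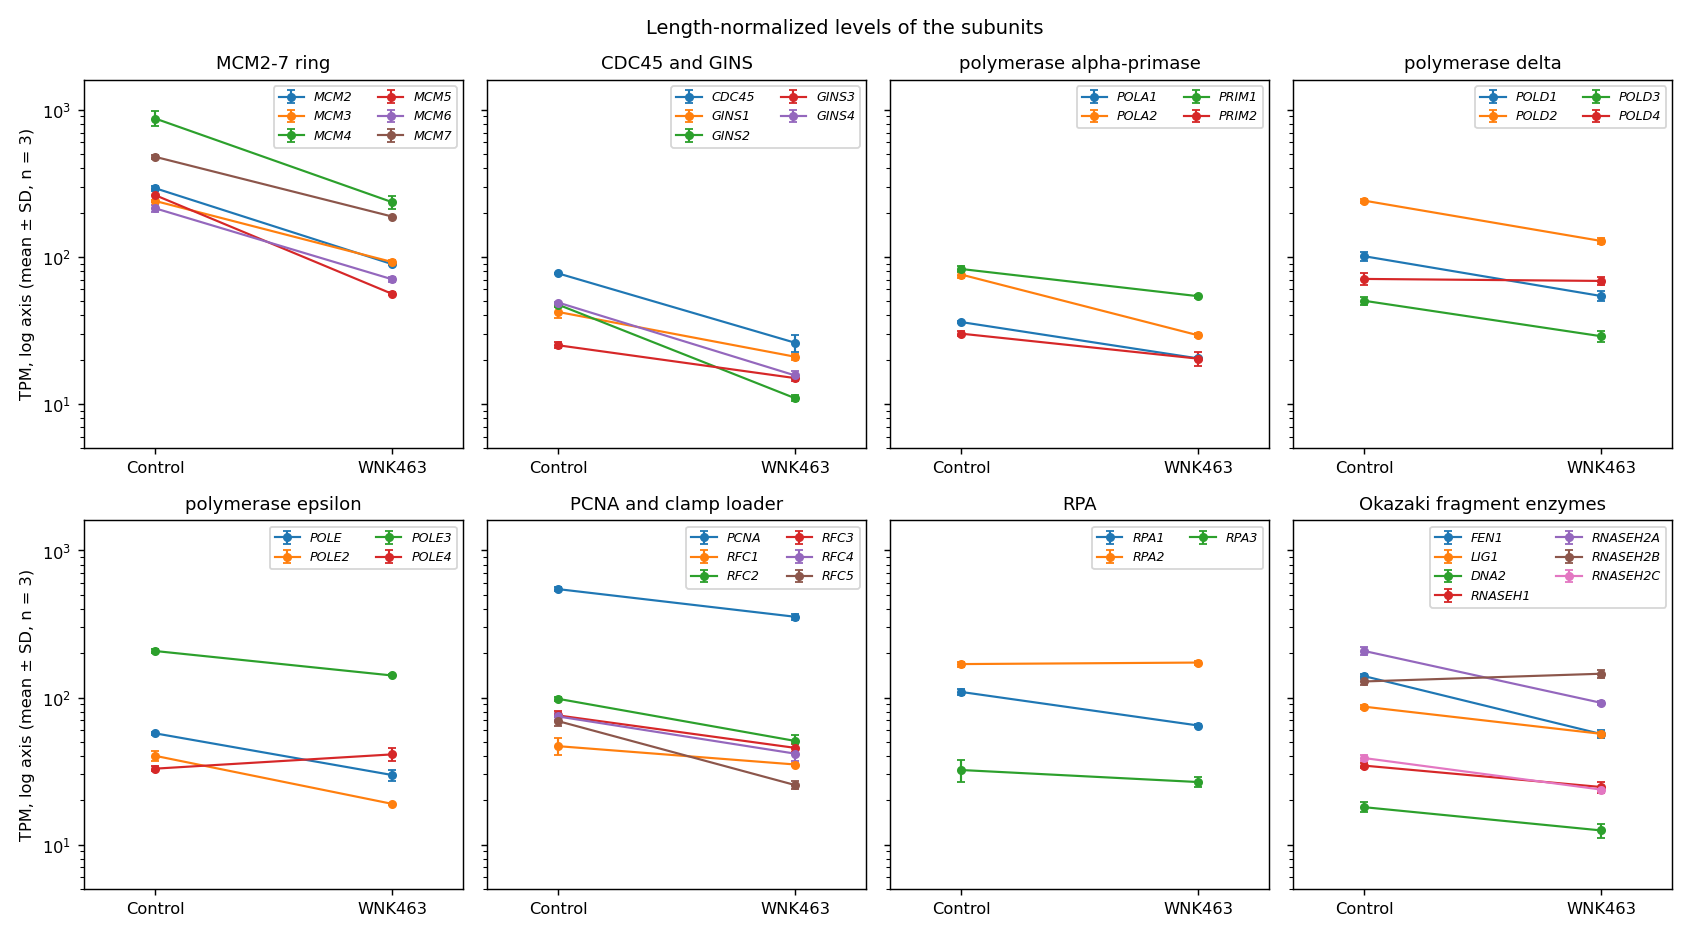
Mean TPM ± SD (y axis, log scale, n = 3) of each subunit in Control and WNK463, 1 panel per subcomplex. The lines of *POLE4*, *POLD4* and *RNASEH2B* cross those of partners that fall, and that of *RPA2*, the highest of RPA in both groups, stays above *RPA1* and *RPA3*.

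Factors that work with the fork were read from a list of 15 genes. Of these, 11 were lower, 1 was higher and 3 were not called, with a median of -0.85. Of all tested genes, 35.3% were lower and 35.5% higher. *MCM10*, which helps the helicase start, went from 56.7 to 16.6 CPM (-1.77), and *CLSPN*, an adaptor that travels with the fork, from 81.7 to 30.8 CPM (-1.41). *RAD17*, the large subunit of the loader of the checkpoint clamp, went from 37.7 to 47.0 CPM (0.32, adjusted p = 0.0077 by edgeR). It read 30.8, 38.3 and 44.0 CPM in Control and 48.0, 49.8 and 43.2 CPM with WNK463, so the groups overlapped. *RAD17* shares *RFC2* to *RFC5* with *RFC1*. *CHTF8*, *MCMBP* and *TOP1* were at 0.04, -0.06 and -0.09, and the latter 2 were above 0 with total-count scaling.

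The list of other DNA polymerases and fork paralogs was called in shares near those of all tested genes (35.3% lower and 35.5% higher). Of 17 tested genes, 7 were lower, 7 higher and 3 not called, with a median of 0.12, and *DNTT* and *RPA4* were below the filter. With total-count scaling 4 were lower and 9 higher, beside 3123 lower and 5525 higher of all 11973. *MCM8*, a ring relative used in recombination, went from 51.0 to 16.7 CPM (-1.61), and *POLQ*, the polymerase of microhomology-mediated end joining, from 69.0 to 31.1 CPM (-1.15). *REV3L*, the catalytic subunit of polymerase zeta, went from 74.5 to 109 CPM (0.55), and *MCMDC2* from 8.94 to 13.6 CPM (0.60). *POLN*, a low gene named after its values were seen, went from 0.361 to 1.94 CPM, with as few as 3 counts in a Control sample. Of 15 G2/M genes, 11 were lower and 2 higher, with a median of -0.59. None of the 15 was lower by 1 log2 or more, beside 5.55% of all tested genes. *CDC20* and *UBE2C*, which drive the exit from mitosis, were at -0.80 and -0.85, and *CENPF* and *CENPE*, kinetochore genes, at 0.49 and 0.25. The groups of *CENPE* overlapped (adjusted p = 0.043 by edgeR). With total-count scaling 9 of the 15 G2/M genes were lower and 2 higher.

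**Figure D5:**
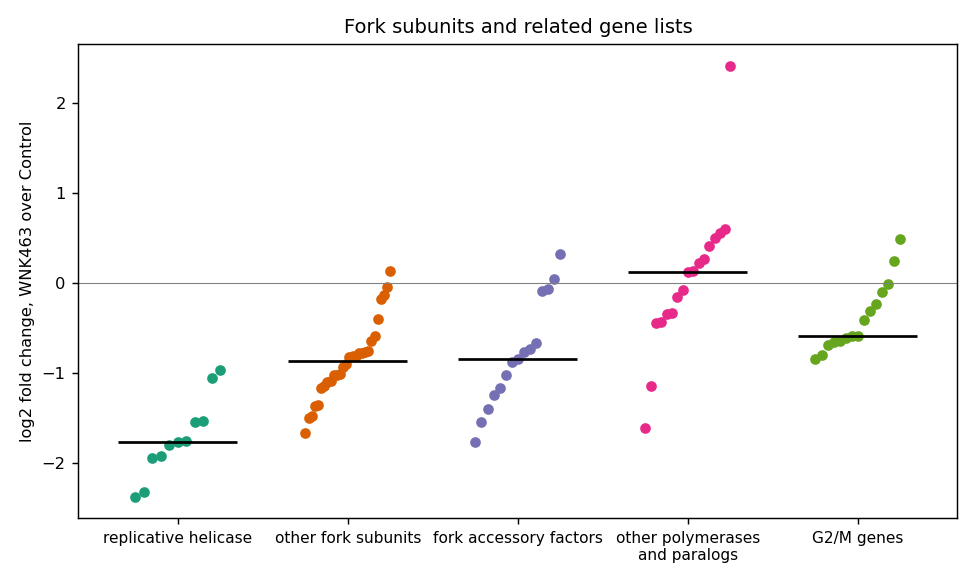
Log2 fold change (WNK463 over Control, y axis) of each tested gene of the helicase, the other fork subunits, the accessory factors, the other polymerases and paralogs and the G2/M genes, with a horizontal line at each median. The medians are -1.77, -0.86, -0.85, 0.12 and -0.59, and the highest point is *POLN*.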

How the data were processed

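RNA-seq of 3 Control and 3 WNK463-treated samples of MV4-11 cells was analysed, grouped by the sample labels. The authors deposited estimated counts per gene as whole numbers, without normalization, and TPM values, which are scaled by gene length and library. Their table also holds the authors' log2 fold changes, p-values and adjusted p-values, which were not used here. The submitters' processing notes name GRCh38, fastp, Bowtie2, HISAT2, StringTie, RSEM, DESeq2 and edgeR. Library strandedness is not given in the sources used here.

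The deposited counts were tested across all genes with edgeR 4.0.16 in R 4.3.3 (quasi-likelihood test after its default low-count filter, with TMM factors and Benjamini-Hochberg adjustment over all tested genes). Called means an adjusted p below 0.05. The SE is the size of the log2 fold change over the root of F. Alternatives were DESeq2 1.42.0, total-count scaling, other filters, the replicate number as a block, limma 3.58.1 on log2(TPM + 1) and log2(TPM + 0.1), and each sample left out in turn. Pairs of replicates differed by more than sampling noise. The procedure was tested on simulated data.

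The members and lists were chosen with earlier results of these data known. Values in every sample are given for the 3 members with the largest fall, members not called lower, and the largest and smallest change of each subcomplex, and *RPA3* was added after its values were seen. Of the other lists, the called genes of smallest p, at most 2 in each direction, are named. The largest pair change of each subcomplex is named. Genes were placed with GENCODE 29, and promoters are from RefSeq. Exons of 16 of the 39 members overlap an opposite-strand gene, among them *GINS2*, *RFC5*, *FEN1* and *RNASEH2B*, so reads of the partners cannot be told apart without strand. Exons of 8 members overlap a gene on the same strand, among them *POLD4*, *PRIM1*, *FEN1* and *RNASEH2A*, which strand would not resolve. Annotated pseudogenes are named after 8 members.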

Additional observations from a re-analysis of the deposited data

How the results depend on the processing

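Across 13 alternatives for each of the 39 genes, 483 of 507 combinations kept direction and call, and 34 genes kept both under all 13. The number of members lower was 34 to 37, and 35 to 37 with each sample left out. The number lower by at least 1 log2 was 22, and it was 14 with limma on log2(TPM + 1), 15 on log2(TPM + 0.1) and with total counts, and 20 to 22 with each sample left out. Of all genes tested, 5.55% were lower by this rule in the main fit. The share was 2.3% with limma on log2(TPM + 1), 3.2% on log2(TPM + 0.1) and 3.8% with total counts. The number higher was 0, and it was 1 (*POLE4*) with total counts, log2(TPM + 1) and log2(TPM + 0.1), at 0.28, 0.31 and 0.32. The number of other polymerases and paralogs lower was 7, and it was 4 with each of these settings and 6 to 7 with each sample left out. *RPA2* turned to 0.0201 with total counts and to 0.0342 and 0.0344 with the limma fits, and *RNASEH2B* to 0.11, 0.17 and 0.17. The cause was not tested. Non-overlapping pairs numbered 63, and 61 on TPM.

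The replicate numbers did not pair the samples, since the correlations of same-numbered samples' deviations were 0.02, -0.02 and -0.05. With the replicate number as a block, 36 members were lower, and only *POLD4* lost its call. The lowest count of a member in a sample was 195, for *POLE2*.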

Other observations

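Divergent neighbours of fork genes give values outside the comparisons above. Of the 32 fork genes with a RefSeq promoter window, 8 have a RefSeq gene on the opposite strand that starts within 1000 bases. The other 7 fork genes were not searched. Of the neighbours found, 5 were tested. *PXMP2*, whose start lies 245 bases from that of *POLE*, went from 13.4 to 5.06 CPM, a log2 fold change of -1.40 (adjusted p = 1.8e-08 by edgeR), beside -1.17 for *POLE*. *SMYD4*, 103 bases from *RPA1*, went from 26.8 to 14.7 CPM (-0.86, adjusted p = 1.5e-07 by edgeR), beside -0.94 for *RPA1*. *AP4M1*, 265 bases from *MCM7*, was at -0.09 and *TMEM258*, 312 bases from *FEN1*, at -0.21, and neither passed the test (adjusted p = 0.42 and 0.083 by edgeR). *C9orf43*, 373 bases from *POLE3*, went from 0.525 to 1.09 CPM (1.04, adjusted p = 0.047 by edgeR), a level close to the filter. Of the 5 tested neighbours, 2 were lower and 1 was higher, which at this number is not set apart from the 35.3% lower and 35.5% higher of all tested genes. Exons of 4 of these pairs overlap on opposite strands, all but *PXMP2* and *POLE*, so their reads cannot be told apart without strand.

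The alternative clamp loaders share *RFC2* to *RFC5* and differ in their large subunit. *CHTF18*, of the loader that works in sister chromatid cohesion, was at -1.16, *ATAD5*, of the complex that removes PCNA, at -0.85, and *RFC1* at -0.59. *RAD17* was at 0.32, with overlapping groups. These genes were singled out after their values were seen, and the differences between them were not tested.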
